A study of Saccharomyces cerevisiae with 8 samples.

Results

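The episomes that carry the human *HPRT1* locus and its reversed copy *HPRT1R* in yeast were compared by ATAC-seq, which reads accessible DNA from the places where a transposase inserts sequencing adaptors. The comparison uses 4 of the 8 libraries of the series, 2 independent clones of each strain, chosen by the labelled strain and context. They hold 4325 of the 9025 peaks deposited. The other 4 libraries come from strains with the same loci integrated on chromosome XI and are used only to read regions that were chosen on the episomes.

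Both strains derive from BY4741, a haploid laboratory strain with the alleles his3Δ1, leu2Δ0, met15Δ0 and ura3Δ0. Strain yBRC285 carries *HPRT1* and strain yBRC320 carries *HPRT1R*, each on the same assembly vector, pLM1110, a centromeric yeast plasmid with a *LEU2* marker. All 4 cultures were grown in SC-Leu at 30 °C for 6 h, from an optical density of 0.1 to about 0.6, so medium and marker did not differ between the groups. Tagmentation of the spheroplasts, cells without their wall, took 30 min, followed by 11 cycles of PCR. Each strain is 1 assembled episome, and its clones are separate colonies of that strain. The number of episomes per cell was not analysed here.

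*HPRT1* encodes an enzyme of purine salvage and has a promoter rich in CpG dinucleotides. *HPRT1R* holds the same bases in reverse order, without complementing them. Base composition and homopolymer runs are kept at the mirrored position, whereas codons and splice sites are lost and binding motifs change. The study predicts more binding sites of yeast factors in *HPRT1R* than in *HPRT1*. Every CpG becomes a GpC and every GpC a CpG. In yeast, nucleosome-free DNA is found mainly at promoters and is set by general regulatory factors, by chromatin remodellers and by stiff poly(dA:dT) tracts, which disfavour nucleosomes. Neither locus has evolved in yeast.

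A base x of *HPRT1R* therefore has its counterpart at 100736 minus x in *HPRT1*, and peaks were compared in that mirrored frame and, as a contrast, at the same coordinate without mirroring. Coordinates count from 1 at the first base of the 100735 bp locus in the authors' reference, which includes a lox site of 34 bp at each end. Sequences are shown for 2 windows of the synthetic *HPRT1R* segments, from the segment sequences published with the study, because these are the windows that lay in peaks in both strains. A window is the first 399 bases of a segment, the stretch used here for each, and a window was counted as in peaks where at least 50% of its bases lay in peaks of both clones.

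The windows of segments 20 and 1 lay in peaks in both strains. Segment 20 covers *HPRT1* from 30719 to 31117, a CpG-rich window that contains the start of the gene, where 100% of the bases were in peaks of both clones in each strain. The 150 bases shown lie upstream of the gene in *HPRT1*, with CG dinucleotides in capitals. Segment 1 is the first window of *HPRT1R* and the last of *HPRT1*, and its share in peaks was 99.2% in *HPRT1R* and 91.5% in *HPRT1*. The *HPRT1* peaks over it have their summits 166 bp inside the vector and those of *HPRT1R* inside the locus, so it is not shown that the same peak was kept.
HPRT1R 69868 to 70017: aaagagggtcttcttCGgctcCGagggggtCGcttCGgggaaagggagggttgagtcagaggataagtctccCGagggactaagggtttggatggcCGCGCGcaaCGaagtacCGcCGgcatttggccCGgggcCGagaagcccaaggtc
HPRT1 30719 to 30868: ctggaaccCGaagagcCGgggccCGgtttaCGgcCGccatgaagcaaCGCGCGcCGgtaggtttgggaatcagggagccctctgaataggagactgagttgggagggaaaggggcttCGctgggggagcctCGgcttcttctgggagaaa
HPRT1R 120 to 269: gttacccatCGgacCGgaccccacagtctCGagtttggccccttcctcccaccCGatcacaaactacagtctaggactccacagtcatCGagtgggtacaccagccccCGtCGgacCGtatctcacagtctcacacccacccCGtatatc
HPRT1 100467 to 100616: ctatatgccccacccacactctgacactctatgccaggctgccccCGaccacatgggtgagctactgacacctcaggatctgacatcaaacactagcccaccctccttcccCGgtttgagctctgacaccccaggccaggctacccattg
The stretch from segment 20 holds 13 CG dinucleotides in *HPRT1R* and 11 in *HPRT1*, and that from segment 1 holds 9 and 2. Neither has a run of 5 or more bases of a single letter, A or T.

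The windows of segments 7 and 4 were in peaks in *HPRT1R* alone, with shares of 100% and 76.7% against 0% of their bases in *HPRT1*. Segment 7 covers *HPRT1R* from 21460 to 21858 and holds a run of 22 bases of a single letter, A or T. This run is the longest in any of the 27 windows, and reversal keeps it. The windows of segments 28 and 14 were in peaks in *HPRT1* by the same criterion, with shares of 64.7% and 55.9%. In *HPRT1R* the shares were 32.6% and 46.9%, so the windows of segments 28 and 14 differed by degree. The window of segment 16 was also in peaks in *HPRT1* alone, with 53.4% of its bases against 0% in *HPRT1R*. That of segment 10 was in peaks in *HPRT1R* by the same criterion, with 67.2% against 12.03% in *HPRT1*. Windows with 0% in the other strain and windows that differed by degree thus occurred in both directions.

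The study states only a nominal read number for these libraries, so the depth of each was read from its peaks. MACS2's fold enrichment, the fragment count at the summit over the local background, and its p-value together fix both quantities. At nuclear peaks the median background amounted to 5.75 and 6.93 fragments in the *HPRT1* clones, and to 5.63 and 5.82 in the *HPRT1R* clones. The locus was deeper, with median summit counts of 88 and 108 fragments in *HPRT1* and 147 and 126 in *HPRT1R*, against 23 to 25 in nuclear peaks. A peak over the locus is thus called at a smaller enrichment than a nuclear one. The lowest fold enrichment called in the locus was 1.55 in each *HPRT1* clone, and 1.60 and 1.74 in the *HPRT1R* clones.

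Both episomes were open at many places along their whole length. The *HPRT1* clones had 47 and 45 peaks over the locus and the *HPRT1R* clones 52 and 53, so the groups did not overlap (exact two-sided permutation test, p = 0.333). This is the smallest p that the 6 arrangements of 2 against 2 libraries allow, so no permutation test over the libraries can pass 0.05 in this design. The *HPRT1R* peaks were narrower, with median widths of 398 and 367 bp against 418 and 512 bp (exact p = 0.333). Peaks covered 22.9% and 25.1% of the locus in *HPRT1* and 24.2% and 23.2% in *HPRT1R*, and here the groups overlapped (exact p = 1).

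The local background at locus peaks, divided by that at nuclear peaks, was 5.79 and 6.74 in the *HPRT1* clones and 9.87 and 8.12 in the *HPRT1R* clones. The groups did not overlap and differed by 0.52 on the log2 scale (exact p = 0.333). At vector peaks, whose sequence both episomes share, the same ratio was 7.62 and 8.60 in *HPRT1* and 9.07 and 7.35 in *HPRT1R*. These overlapped, with a difference of 0.01 on the log2 scale (exact p = 1). Strong peaks, with a −log10 q of 10 or more, numbered 25 and 24 in *HPRT1* and 40 and 39 in *HPRT1R*. The median background at locus peaks was 33.3 and 46.7 fragments in the *HPRT1* clones and 55.6 and 47.3 in the *HPRT1R* clones. The second clones of the strains were thus close in background but had 24 and 39 strong peaks. The part of the background in the number of called peaks was not tested.

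Positions of open chromatin were partly kept on reversal. Bases in peaks of both clones made up 19.8% of *HPRT1* and 20.8% of *HPRT1R*. In the mirrored frame, 9206 of them were shared, which is 46.2% of the *HPRT1* bases and 44.0% of the *HPRT1R* bases. Without mirroring 3738 were shared, 18.8% and 17.9%, close to the share of the locus that the peaks of the other strain cover.

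The Jaccard index divides the bases that 2 sets of peaks share by the bases that at least 1 of them covers. It was 0.291 for the both-clone bases in the mirrored frame and 0.101 without mirroring. Between single libraries of different strains it was 0.301, 0.292, 0.340 and 0.304 in the mirrored frame and 0.115 to 0.136 without mirroring, so the ranges did not overlap. Clones of the same strain reached 0.702 in *HPRT1* and 0.776 in *HPRT1R*. The mirrored strains thus lay between unrelated positions and clones of a strain. On the nuclear chromosomes, where the strains have the same sequence, the 4 pairs of different strains had indices of 0.490 to 0.513, and the 2 pairs of clones had 0.485 and 0.521.

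**Figure D1:**
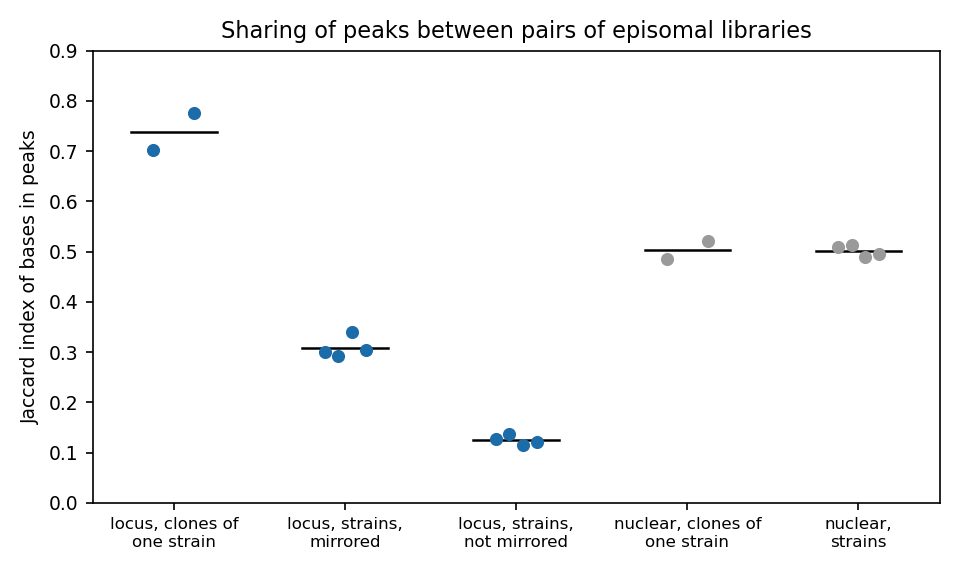
Jaccard index of bases in peaks (y axis) for each pair of episomal libraries, as points with their mean as a bar. Locus pairs of different strains lie at 0.292 to 0.340 when *HPRT1R* is mirrored and at 0.115 to 0.136 when it is not, below the 0.702 and 0.776 of clones of a strain, while nuclear pairs of different strains lie among those of clones of a strain.

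Summits gave the same order. From the summits of the *HPRT1* clones, the nearest mirrored *HPRT1R* summit lay at a median distance of 196 to 314 bp in the 4 pairs of libraries, against 555 to 645.5 bp without mirroring. Of these summits, 43.5% to 54.5% had a mirrored one within 250 bp, against 21.7% to 27.3% without mirroring. Between clones of a strain the median distances were 34.5 and 37.5 bp.

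The overlap was then read by peak strength. Of the 20 locus peaks with the highest fold enrichment in a library, 14 and 14 overlapped mirrored both-clone bases of the other strain in the *HPRT1* clones and 13 and 13 in the *HPRT1R* clones. Of the remaining peaks, 12 of 26 and 12 of 24 did so in *HPRT1*, and 16 of 32 and 14 of 32 in *HPRT1R*. In every library this share was higher among the strongest peaks. Without mirroring, 9 and 7 of the 20 highest overlapped in the *HPRT1* clones, and 10 of 26 and 11 of 24 of the rest. In the *HPRT1R* clones 9 and 9 of the 20 highest did so, and 6 of 32 of the rest in each. The share without mirroring was thus also higher among the strongest peaks, except in the second *HPRT1* clone. Peak width was not held constant, and none of these differences was tested.

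Overlapping peaks of the 4 libraries were then merged in the mirrored frame, which gave 68 regions. A peak from every library was present in 28 of them, or 41.2%. Another 10 regions had a peak in both *HPRT1* clones and in neither *HPRT1R* clone, and 17 had a peak in both *HPRT1R* clones and in neither *HPRT1* clone. Among the 1485 nuclear regions, the control with unchanged sequence, 2.15% had a peak in the *HPRT1* clones alone and 2.96% in the *HPRT1R* clones alone, against 14.7% and 25.0% over the locus. Nuclear regions were more often called in a single library, in 29.4% against 11.8% over the locus, and a comparison at high significance is therefore given as well. Of 45 locus regions with a −log10 q of at least 10 in both clones of a strain, 3 had no peak in either *HPRT1R* clone and 14 had none in either *HPRT1* clone. Of 111 such nuclear regions, 0% lacked a peak in both clones of the other strain in each direction. This last comparison was added after the data were seen. Its 45 locus regions pool both strains, which had unequal numbers of strong locus peaks (25 and 24 in *HPRT1*, 40 and 39 in *HPRT1R*).

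**Figure D2:**
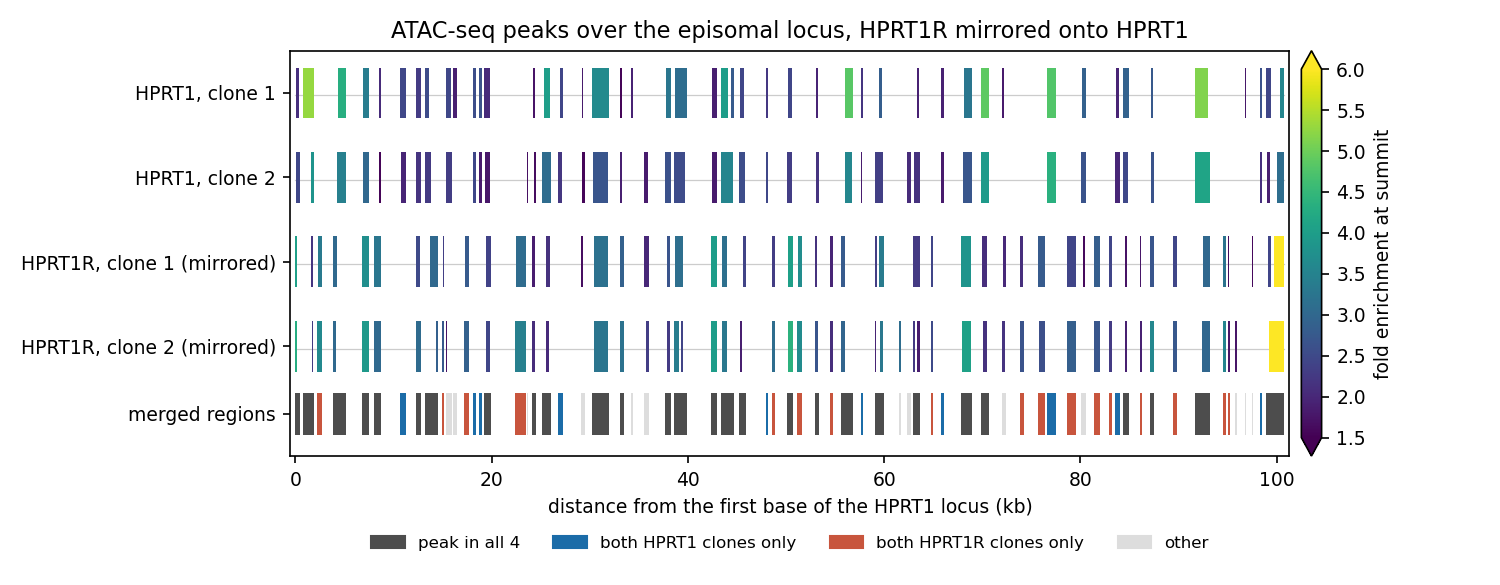
Peaks of the 4 libraries along the locus (x axis, kb from the first base of *HPRT1*, with *HPRT1R* mirrored), coloured by fold enrichment at the summit, above the 68 merged regions coloured by the libraries that had a peak. Regions with a peak in all 4 libraries and regions with a peak in both clones of only 1 strain are unevenly spread. Between 27254 and 47977 there is no region of the second kind, and between 70677 and 84359 none of the first.

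**Figure D3:**
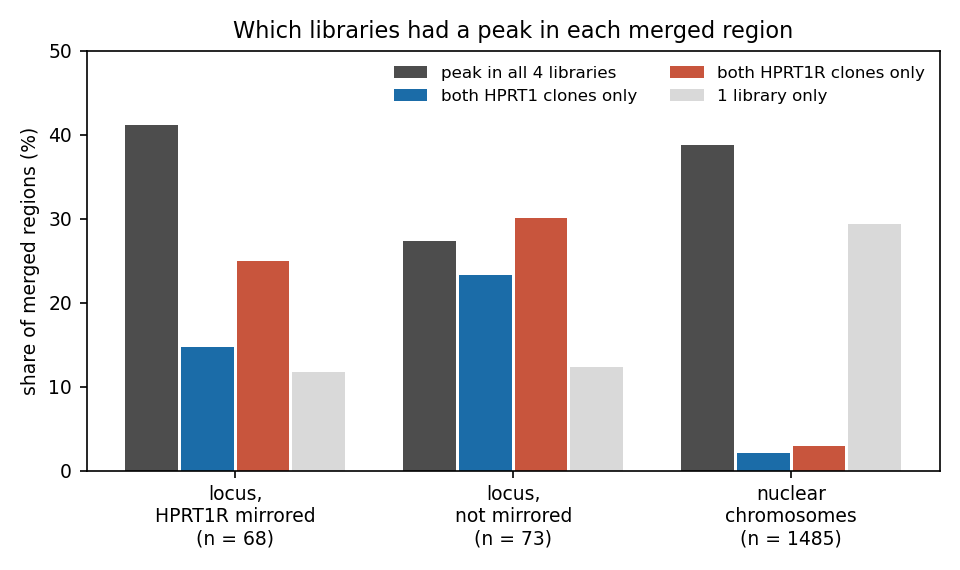
Share of merged regions (y axis, %) with a peak in all 4 libraries, in both clones of only 1 strain, or in 1 library, for the locus with *HPRT1R* mirrored (68 regions), the locus without mirroring (73) and the nuclear chromosomes (1485). The bars for only 1 strain reach 14.7% and 25.0% in the mirrored locus and 2.15% and 2.96% on the nuclear chromosomes.

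The regions with a peak in *HPRT1* alone had a median fold enrichment of 2.28, from 1.87 to 4.57, and a median width of 325.5 bp. One stood well above the others. It lay from 76605 to 77509 with fold enrichments of 4.78 and 4.36, and its counterpart in *HPRT1R*, from 23227 to 24131, held no peak. Both clones of integrated *HPRT1* also had a peak there. The next lay from 18131 to 18438 (2.57 and 2.45), from 98297 to 98519 (2.63 and 2.13) and from 47977 to 48183 (2.23 and 2.45), all close to each other in enrichment.

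The regions with a peak in *HPRT1R* alone had a median fold enrichment of 2.63, from 1.69 to 3.67, and a median width of 406 bp. In the coordinates of *HPRT1R*, the highest lay from 49125 to 49570, with fold enrichments of 3.68 and 3.66. It was followed by 98020 to 98504 (3.34 and 3.62), 5912 to 6184 (3.22 and 3.55) and 77259 to 78322 (3.07 and 3.45). In each of these the clones differed by at most 0.374, and the mirrored place in *HPRT1* held no peak in either clone.

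Libraries that the choice of regions had not used were then read at the same places. These are the strains with integrated loci, which were grown in YPD, so that context and medium differ from the episomes. Of the 17 regions with a peak in the *HPRT1R* episome alone, 9 had a peak in each clone of integrated *HPRT1R* and 0 in each clone of integrated *HPRT1*. Of the 10 regions with a peak in the *HPRT1* episome alone, 4 and 3 had a peak in the clones of integrated *HPRT1*, and 1 and 0 in those of integrated *HPRT1R*. Of the 28 regions with a peak in all 4 episomal libraries, 13 and 14 had one in integrated *HPRT1* and 21 and 20 in integrated *HPRT1R*. In each list the counts of the 2 strains did not overlap, and the difference was not tested.

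In 27 of the 28 regions with a peak in every library, each library also had a summit inside the locus, and the fold enrichment there was compared. It was tested with limma on the log2 scale together with 576 nuclear and 3 vector regions, 606 in all. Both *HPRT1R* clones lay above both *HPRT1* clones in 14 locus regions, against 27.2% of all 606 regions, and below them in 9, against 10.7%. The median absolute difference was 0.35 on the log2 scale in the locus and 0.16 on the nuclear chromosomes, and 4 of the 27 locus regions differed by at least 1, against 0 of the 576 nuclear ones. The summits of the strains lay within 250 bp of each other in 20 of the 27 regions, with a median distance of 163 bp.

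Past an adjusted p of 0.05 there were 4 regions, all of them in the locus, 2 higher in *HPRT1R* (0.33% of the 606) and 2 higher in *HPRT1* (0.33%). At an unadjusted p under 0.05 there were 11 locus regions, 33 nuclear regions and 0 vector regions. The counts past the threshold moved with the library left out and with the scaling: 1 region, from 98945 to 100735, remained without the first *HPRT1* clone, and 13 passed when each library was centred on its nuclear median, 9 of them in the locus.

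The largest difference was at an end of the locus. Peaks at the start of *HPRT1R*, from 38 to 1004 and from 33 to 1488, had fold enrichments of 7.73 and 6.90, the highest of any locus peak. The mirrored place is the end of *HPRT1*, where peaks with summits inside the locus reached 2.43 and 1.89, a difference of 1.77 on the log2 scale (SE 0.20, limma, adjusted p = 0.000205). These are not the same bases, since the summits lay 1384 bp apart in the mirrored frame and the peaks were joined only through their neighbours. The peaks over the last bases of *HPRT1* started at 100337 and 100037 and ran on into the vector, with summits 166 bp past the end of the locus and fold enrichments of 3.56 and 3.11. By fragments at the summit the *HPRT1R* start peaks were not the highest, with 204 and 162. The *HPRT1R* peaks in the region from 67859 to 68971 had 222 and 209, at fold enrichments of 3.83 and 4.08. The reference begins at the first base of the locus, whereas the end of the locus is joined to the vector. What this does to the local background was not tested.

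At the other end, the *HPRT1* clones had peaks from 65 to 359 and from 88 to 450, with fold enrichments of 2.11 and 2.45. The mirrored peaks at the end of *HPRT1R* started at 100527 and 100543 and also ran 283 bp into the vector, with fold enrichments of 4.03 and 4.31. Their summits were at 100721 in the first clone and 166 bp past the locus in the second. In 3 of the 4 libraries the peak at the end of the locus thus had its summit at the same base of the vector. Vector sequence flanks opposite ends of the mirrored loci, so end and sequence cannot be told apart there.

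The region from 42400 to 42995 in *HPRT1* was higher in *HPRT1R*, with fold enrichments of 3.99 and 3.99 against 1.88 and 1.83 in *HPRT1*. The difference was 1.11 on the log2 scale (SE 0.19, limma, adjusted p = 0.00974). The adjusted p ranged from 5.16e-05 to 0.0541 over the alternatives and was highest without the first *HPRT1* clone.

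The region from 69867 to 70677 was higher in *HPRT1*, with fold enrichments of 4.88 and 3.93 against 2.08 and 2.13, and summits 96 bp apart. It fell by 1.05 on the log2 scale in *HPRT1R* (SE 0.20, limma, adjusted p = 0.0171, with a range of 1.07e-05 to 0.194 over the alternatives). Near the start of *HPRT1*, the region from 831 to 1911 had fold enrichments of 5.29 and 3.83 against 2.2 and 2.26, with summits 46 bp apart. It fell by 1.01 in *HPRT1R* (SE 0.21, limma, adjusted p = 0.0310, with a range of 2.19e-05 to 0.216). Neither of these passed 0.05 without the first *HPRT1* clone, and the region from 831 to 1911 also did not with log2 of the ratio plus 1.

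Other regions were strong in both directions. The region from 91714 to 93183 had fold enrichments of 5.14 and 4.13 in *HPRT1* and 3.0 and 2.98 in *HPRT1R*, but the summits lay 662.5 bp apart (limma, adjusted p = 0.246). The region from 55566 to 56856 had 4.83 and 3.59 against 2.77 and 2.95 (limma, adjusted p = 0.419). The region from 6766 to 7550 had 3.39 and 3.0 against 3.72 and 3.92, with summits 91 bp apart (limma, adjusted p = 0.664). At the start of the *HPRT1* gene, from 30283 to 31942, fold enrichments of 3.64 and 2.68 stood against 3.17 and 3.25, so the groups overlapped, and the summits were 77 bp apart (limma, log2 difference 0.04, SE 0.20, adjusted p = 0.991). This is the region that holds the window of segment 20 shown above.

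**Figure D4:**
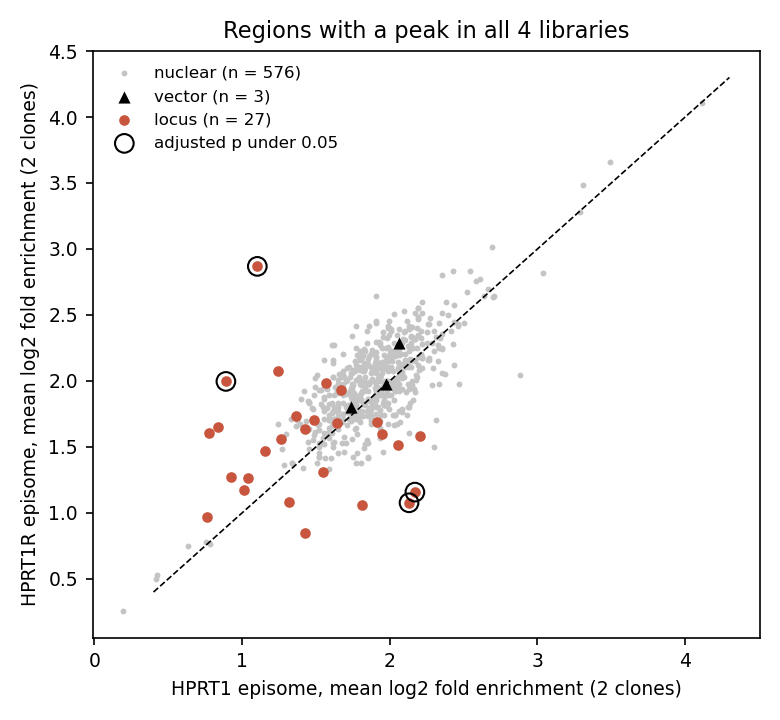
Mean log2 fold enrichment over 2 clones in the *HPRT1* episome (x axis) and the *HPRT1R* episome (y axis) for the 606 regions with a peak in all 4 libraries, with the line of equal values. The 27 locus regions scatter more widely around the line than the 576 nuclear ones, the 3 vector regions lie near it, and the 4 circled regions, all in the locus, passed an adjusted p of 0.05.

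The vector peaks lay at similar positions in both strains. The libraries had 4, 4, 3 and 4 vector peaks, which merged into 4 regions, and 3 of these had a peak in all 4 libraries. The region from 103859 to 104558 had fold enrichments of 3.32 and 3.35 in *HPRT1* and 3.38 and 3.6 in *HPRT1R*, with summits at 104158 to 104164. The region from 105599 to 106652 had 4.15 and 3.70 against 3.70 and 4.19, with summits at 106190 to 106195. The widest, from 110585 to 113926, had 4.24 and 4.10 against 4.82 and 4.92. Its summits lay at 111331 and 111647 in *HPRT1* and at 111976 and 111978 in *HPRT1R*. It also held a second, lower peak in 1 clone of each strain, with a summit at 113892 in the first *HPRT1* clone (2.42) and at 113522 in the second *HPRT1R* clone (2.23). Summits in the other 2 regions lay within 10 bp of each other in all 4 libraries. None of the 3 passed in limma, with log2 differences of 0.07 (SE 0.19), 0.01 (SE 0.19) and 0.22 (SE 0.19) and adjusted p-values of 0.964, 0.997 and 0.751. The remaining region, from 105069 to 105425, had a peak in the second *HPRT1* clone alone, at 1.59.

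The nuclear chromosomes served as the control in the same medium. The *HPRT1* clones had 1001 and 988 nuclear peaks and the *HPRT1R* clones 1041 and 1009, which did not overlap (exact p = 0.333). All 4 libraries had a peak in 576 of the 1485 regions. In limma 0 of these passed an adjusted p of 0.05, 33 had an unadjusted p under 0.05, and the lowest adjusted p was 0.0801. The alternatives gave 0 to 4 nuclear calls, with 4 after centring, 3 with the replicate block, 2 among regions of −log10 q 5 or more and 1 without the first *HPRT1R* clone. Over *LEU2*, the leucine biosynthesis gene on chromosome III from 91324 to 92418, all 4 libraries had a peak, with fold enrichments of 3.85 and 3.28 in *HPRT1* and 3.32 and 2.49 in *HPRT1R*. BY4741 lacks this gene and the vector carries it, so these peaks are counted among the nuclear regions by their coordinates but do not measure chromatin of chromosome III.

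The 4 highest nuclear regions with a peak in the *HPRT1* clones alone lay before genes, in sacCer3 coordinates. On chromosome VII from 306358 to 306642, the summit was 109 bp before the annotated start of *MLC1*, an essential myosin light chain, with fold enrichments of 4.15 and 3.15. On chromosome VIII from 302041 to 302562, it was 234 bp before *SFB3*, which encodes a cargo adaptor of COPII vesicles (3.85 and 3.40). On chromosome XI from 439594 to 439887, it was 384 bp before *MET14*, which encodes an enzyme of sulfate assimilation (3.11 and 3.78). On chromosome II from 681915 to 682158, it was 205 bp before *LSR1*, the U2 snRNA gene (3.41 and 3.40).

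Among nuclear regions with a peak in the *HPRT1R* clones alone, the 2 highest had summits in tRNA genes. These were *SOE1*, for glutamate, on chromosome VII from 328514 to 328790 (4.38 and 4.69) and *YNCL0038W*, for isoleucine, on chromosome XII from 734731 to 734912 (4.68 and 3.22). On chromosome IX from 241838 to 241999, the summit was 113 bp before *EFM4*, which encodes a methyltransferase of translation elongation factor 1A (3.32 and 4.40). On chromosome XVI from 942524 to 942840, it was 406 bp before *YPR202W*, near a chromosome end and similar in sequence to other genes there (3.62 and 3.96). Genes of near-identical copies share reads, so the values at the tRNA genes and at *YPR202W* are uncertain.

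The base composition of the windows was compared with their peaks. Over the 27 windows GC content ran from 25.3% to 69.9%, with a median of 42.1%, and reversal leaves it unchanged. In *HPRT1R*, the 9 windows with any base in both-clone peaks had a median GC content of 47.1% and the 18 others 37.5%. In *HPRT1*, the medians were 42.7% in 10 windows and 40.1% in 17. The median number of CG dinucleotides in a window was 18 in *HPRT1R* and 3 in *HPRT1*. The longest run of a single letter, A or T, had a median of 6 in windows with bases in peaks and of 7 in the others, in either strain.

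Motifs of yeast factors known to keep chromatin open, and TATAAA, a form of the TATA box, were then counted on both strands. CGCG, the core of the Rsc3 site, was in 6 of the 27 windows of *HPRT1R* (22.2%) and in 2 of *HPRT1* (7.41%). TATAAA was in 48.1% and 55.6%. TTACCCG, the site of Reb1, and CACGTG, that of Cbf1, were each in 1 window of *HPRT1R* (3.70%) and in 0 of *HPRT1*. Of the 5 windows in peaks in each strain, 1 held CGCG and 1 held TATAAA. The windows are a small part of the locus, and these matches describe letters alone.

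Windows that share sequence with each other were then set apart. At least 10 of their 12-mers were shared, on either strand, with at least 2 other windows in 11 of the 27, and this group includes segments 7, 4, 28 and 14. The criterion was chosen after the sequences and their peaks had been seen. Of the 11 repeat windows, 3 were in peaks in *HPRT1R* alone, 3 in *HPRT1* alone, 0 in both and 5 in neither. Of the 16 other windows, 2 were in peaks in both strains, 14 in neither and 0 in only 1 strain. This split rests on the limit of 50% of the bases. With any base in both-clone peaks counted, 5 of the 11 repeat windows and 4 of the 16 others were in peaks in only 1 strain, and 3 and 2 in both. The GC content of the repeat windows had a median of 42.6%, from 38.1% to 50.6%, and that of the others 36.5%. The 3 windows in peaks in *HPRT1* alone at 50% carry the repeat on the opposite strand from the other 8. With any base counted, 1 of these 3 and 2 of the other 8 were in peaks in *HPRT1* alone. The copies are similar to each other and are not independent of one another.

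**Figure D5:**
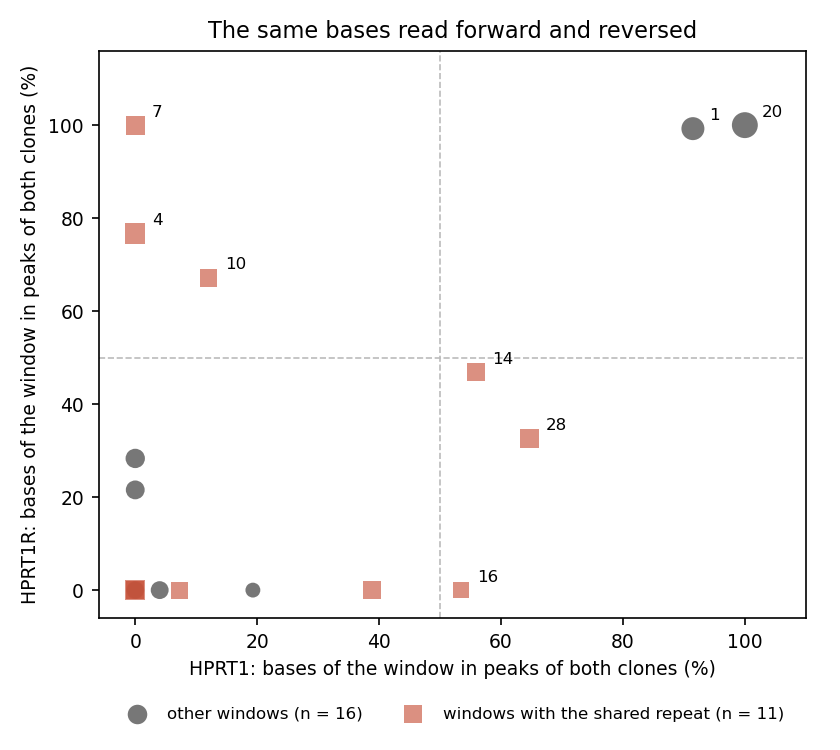
Share of the bases of each of the 27 segment windows in peaks of both clones in *HPRT1* (x axis, %) and *HPRT1R* (y axis, %), with the 50% limits as dashed lines, point size rising with GC content and segment numbers at windows past a limit. Segments 1 and 20 lie in peaks in both strains, and the 6 windows past the 50% limit in only 1 strain are repeat windows, a split that does not hold when any base in peaks is counted (5 of 11 repeat windows and 4 of 16 others).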

How the data were processed

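Chromatin accessibility was measured in 4 episomal libraries, grouped by the labelled strain. The authors aligned trimmed reads with Bowtie2 2.2.9 to sacCer3, to which the locus joined to its vector had been added, and ran MACS2 2.1.0 on paired-end fragments. Each library was called on its own at a q threshold of 0.05, keeping duplicates and using no control. No shift to the transposase cut site is stated. The deposited lists hold 1 line per peak, with the summit's fold enrichment (a ratio to the local background), its p-value and q-value as −log10, and a score derived from the q-value, which was not used.

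Fragment counts and local background were solved from the ratio and the p-value (misfit under 0.001 in −log10 p for at least 99.3% of peaks). That background is never below the mean of the whole genome. A read total for each library is not given in the sources used here, so no counting intervals are given. Peaks were assigned to the locus by their start and cut at its end for coverage. Regions merge peaks that overlap by at least 1 bp. Fold enrichments with summits outside the locus were left out of region values. Log2 ratios were tested with limma 3.58.1 in R, with Benjamini-Hochberg adjustment over all 606 regions and no pseudocount or block. Other steps used Python, NumPy and SciPy. The solving of fragment counts, the mirroring, the Jaccard index and the limma fit were tested on simulated data. Clones are separate colonies, and permutation p-values rest on the spread between them. In limma, the spread at each region is drawn towards that of all 606 regions, most of them nuclear.

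Windows were placed by the lengths and overlaps of the synthetic segments, and segment 8 was not used here. Some window sequences are not reported here. The offset of 34 bp comes from an insertion primer with its position in its name. The nuclear reference is R64, the assembly of sacCer3, and 0 peaks extend past a chromosome end.

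Named were the 4 regions with the highest mean fold enrichment in each class, those at the ends, every vector region, nuclear regions of 1 strain alone (4 each way), limma calls and *LEU2*, and up to 2 windows of each class, with sequences for those in peaks in both strains. The windows of segments 16 and 10 are given besides. Windows, lists and comparisons were chosen with earlier results of these data known. Alternatives were stricter q thresholds, lists of equal length, 100 bp around summits, mean or vector background, a reciprocal overlap of 50%, other scalings, a replicate block and each clone left out. A value with no test counted as unchanged within 1 SD of the 4 pairs of libraries, and a count within 1.5 times.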

Additional observations from a re-analysis of the deposited data

How the results depend on the processing

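The difference in the share of the locus covered had no stable direction. *HPRT1R* minus *HPRT1* was -0.23 percentage points, but 1.88 with peaks of −log10 q 5 or more, 3.99 with 10 or more and 1.35 for 100 bp on each side of summits, and it ran from -1.31 to 0.84 with a clone left out. The larger number of *HPRT1R* peaks held in each alternative tried. With peaks of −log10 q 10 or more the mirrored Jaccard index was 0.197 (0.0633 without mirroring). It was 0.0876 for 100 bp around summits (0.0535 without mirroring) and 0.280 to 0.312 with a clone left out, against 0.101 with every peak but no mirroring. It exceeded the index without mirroring in each of these, by least around summits.

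Locus regions with peaks in only 1 strain numbered 27, but 17 where both clones of the strain with the peak had to reach a −log10 q of 10, and 67 when a match needed a reciprocal overlap of at least 50% (30 of 43 in *HPRT1* and 37 of 50 in *HPRT1R*). The nuclear count was 76, but 9 with a −log10 q of 5 or more and 0 with 10 or more. Windows in peaks numbered 14 with any overlap, against 8, and 9 of the 14 were in peaks in only 1 strain.

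Calls in limma numbered 4, 7 among regions of −log10 q 5 or more in every library (including 3 of the 4), 13 with centred libraries (including the same 4) and 1 to 5 with a clone left out, which assumes that a lone clone varies like the other group. The replicate block gave 11 calls, 8 of them in the locus and 3 nuclear, including the same 4. Replicate numbers do not pair these colonies of different strains, and the correlation of same-numbered deviations was -0.02 over the 606 regions and 0.31 over the 27 in the locus. The cause of these changes was not tested.

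Nuclear peaks hold few fragments, which limits what can be called there, and absent peaks over the locus mean no call, not closed DNA.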

Other observations

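Openness was spread unevenly along the locus. In bins of 10 kb, bases in peaks of both clones made up 11.7% to 31.5% of *HPRT1* and 13.9% to 31.1% of mirrored *HPRT1R*. The bin from 30001 to 40000, which holds the start of the *HPRT1* gene, had the highest share in both strains (31.5% and 31.1%) and 2550 of the 9206 shared bases, against 365 to 1001 in the other bins.

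The study inserted *Sphis5*, the *his5* gene of *Schizosaccharomyces pombe* with its untranslated regions, at 8 positions of the loci. Of these positions, 5 lay in both-clone peaks of the strain they belong to, and 1 had its mirrored position in both-clone peaks of the other strain. Such peaks cover 19.8% of all bases of *HPRT1* and 20.8% of *HPRT1R*, so 1 of 8 is near the share over the whole locus. The sites were not chosen at random, but at transcription start sites that the study had mapped. The difference from the share over the whole locus was not tested.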
